A study of Homo sapiens with 16 samples.

Results

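Endoplasmic reticulum (ER) stress genes were followed in U2OS cells, an established human osteosarcoma line, after 6 h with compound T5, compound T4, CPT or the solvent DMSO. The 10 genes XBP1, HSPA5, HERPUD1, CRELD2, MANF, SDF2L1, DNAJB9, DNAJC3, HSP90B1 and PDIA4 were taken from the matrix by symbol; the rule uses no measured value, but the genes were chosen with earlier results of these data known. All 10 were found among the 25270 genes of the matrix, and all 10 were among the 10600 genes that had a mean of at least 1 FPKM (fragments scaled by transcript length and library depth) over all libraries and were tested. T5 and T4 are code names of compounds that the series presents as modulators of alternative polyadenylation, the choice among sites where the 3′ end of an mRNA is made. CPT is not spelled out in the labels; it is the usual abbreviation of camptothecin, which traps topoisomerase I on DNA. Doses were 0.5, 2, 5, 10 and 20 µM for each of the 3 compounds. Every dose is a single library, as is DMSO, so the comparisons rest on 16 libraries of 1 line, none of them a replicate.

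Proteins that enter the ER are folded there by chaperones and by enzymes that make disulfide bonds. When misfolded protein builds up, the sensors IRE1, PERK and ATF6 start the unfolded protein response (UPR): IRE1 splices XBP1 mRNA so that it encodes an active transcription factor, ATF6 is cut and moves to the nucleus, and PERK slows translation and favours ATF4. XBP1 and ATF6 act on ER stress response elements in promoters of chaperone genes, and XBP1 is needed for much of the induction of genes for degradation of misfolded proteins and of several J-proteins. FPKM per gene does not separate spliced from unspliced XBP1 mRNA, so its values are of total XBP1 mRNA.

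Promoter sequence is shown because it is a feature the 10 genes could share. The ER stress response element was searched on both strands as CCAAT, then any 9 bases, then CCACG, and the related ERSE-II as ATTGG, any 1 base, CCACG. In RefSeq promoter windows of build GRCh38.p14 that run from 250 bases before to 50 after a gene's start, ERSE was present in 4 of the 10 genes and in 0.0769% of all 35116 windows, and ERSE-II in 2 of the 10 genes and in 0.0541% of all windows. All 10 genes matched this table, with 12 windows. The matched stretches follow with 20 bases on each side, 5′ to 3′ in the direction of the gene, capitals marking the motif. A motif on the other strand therefore reads as its complement, starting with CGTGG.
XBP1, ERSE, chr22:28800583-28800641, minus strand: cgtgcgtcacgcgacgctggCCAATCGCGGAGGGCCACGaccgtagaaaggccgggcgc
HSPA5, ERSE, chr9:125241371-125241429, minus strand: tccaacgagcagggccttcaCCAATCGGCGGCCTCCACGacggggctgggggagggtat
CRELD2, ERSE on the other strand, chr22:49918534-49918592, plus strand: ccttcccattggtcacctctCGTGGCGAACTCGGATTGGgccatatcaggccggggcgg
HSP90B1, far ERSE, chr12:103930196-103930254, plus strand: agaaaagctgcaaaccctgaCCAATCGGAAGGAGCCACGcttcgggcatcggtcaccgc
HSP90B1, near ERSE on the other strand, chr12:103930301-103930359, plus strand: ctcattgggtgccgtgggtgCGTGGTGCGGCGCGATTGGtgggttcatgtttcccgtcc
HERPUD1, ERSE-II, chr16:56932005-56932055, plus strand: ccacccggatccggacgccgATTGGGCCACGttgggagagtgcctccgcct
SDF2L1, ERSE-II on the other strand, chr22:21642094-21642144, plus strand: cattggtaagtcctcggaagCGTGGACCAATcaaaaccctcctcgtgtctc
The XBP1 element ended 34 bases before the gene's start and that of HSPA5 48 bases before it. These letters were not in the windows of MANF, DNAJB9, DNAJC3 and PDIA4. The table's build differs from the one the FPKM values were made on, so no position of a measured transcript is given.

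Libraries of this series differed in depth, by which FPKM is scaled: read from the steps between low values, it was 0.639 to 0.996 of that of the DMSO library. Total FPKM still differed between libraries. It was lowest in DMSO, at 238669, and highest at 5 µM T5, at 285143, where relative depth was lowest (0.639). Single FPKM values set beside DMSO below are not adjusted for these totals. Mesenchymal markers matched the labelled line in part: VIM, COL1A1, SPARC and FN1 had at least 129 FPKM in every library, whereas RUNX2 had 0.644 to 2.86 FPKM and COL1A2 at most 0.133 FPKM. The 5 epithelial markers summed to 2.36 to 4.79 FPKM and the 5 blood markers to 0.118 to 0.497 FPKM, with HBB at 0 in all 16 libraries. FPKM is scaled to each library, so neither the number of cells nor the RNA per cell can be read from it. A rise or fall is therefore relative to the other mRNA of the same library.

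In DMSO the chaperones led: HSP90B1 had 160.2 FPKM and HSPA5 99.1 FPKM. MANF followed with 43.6 FPKM, then CRELD2 (29.8), XBP1 (28.7), PDIA4 (27.6) and HERPUD1 (25.5 FPKM), 4 neighbours whose order 1 library cannot settle. SDF2L1 had 14.01 FPKM, DNAJC3 8.18 FPKM and DNAJB9 4.32 FPKM. The summed level of the 10 genes was 441 FPKM in DMSO, 0.185% of all FPKM, and their share lay between 0.184% and 0.245% in the treated libraries.

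XBP1, the transcription factor of the group, fell with T5 and T4 and was above DMSO with CPT. It had 28.7 FPKM in DMSO and, from 0.5 to 20 µM T5, 16.8, 12.3, 9.24, 6.71 and 2.73 FPKM. With T4 the same doses gave 20.6, 13.6, 8.35, 4.74 and 2.35 FPKM. Every step up in dose of either compound was a step down in XBP1, and all 10 libraries were below DMSO, by 10.5-fold at 20 µM T5 and by 12.2-fold at 20 µM T4. With CPT it had 34.5, 43.9, 42.5, 37.6 and 35.0 FPKM, highest at 2 µM and above DMSO at all 5 doses. Changes are given as fitted between 0 and 20 µM on the log2(FPKM + 1) scale over 6 libraries, with the standard error, and rose or fell means a Benjamini-Hochberg adjusted p under 0.05 over all tested genes in limma. XBP1 fell, with a change of -2.64 ± 0.26 for T5 (adjusted p = 0.00117) and of -3.09 ± 0.21 for T4 (adjusted p = 0.00121). The fitted change with CPT was 0.26 ± 0.22 (adjusted p = 0.368), and it was -0.06 without the DMSO library. The falls with T5 and T4 passed the test whichever of the 6 libraries was left out, with adjusted p of at most 0.00978 for T5 and 0.0112 for T4.

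HERPUD1 and DNAJB9 fell with XBP1. HERPUD1, an ER membrane protein that helps assemble the machinery for degrading misfolded proteins, had 25.5 FPKM in DMSO and 23.4, 22.6, 16.4, 11.95 and 5.16 FPKM from 0.5 to 20 µM T5. T4 gave 24.6, 22.8, 15.96, 9.68 and 5.53 FPKM, and CPT 33.7, 38.8, 29.5, 23.9 and 27.5 FPKM. Most of the loss with T5 and T4 therefore lay at 5 µM and above, whereas XBP1 had its first clear drop at 0.5 µM. HERPUD1 fell, with -1.88 ± 0.38 for T5 (limma adjusted p = 0.00797) and -1.99 ± 0.34 for T4 (adjusted p = 0.00477). Its fitted change with CPT was -0.17 ± 0.27 (adjusted p = 0.628), and centring libraries on their median turned that sign, to 0.28. With the same centring the T5 fall was -1.21 (adjusted p = 0.0518), and without the 20 µM library it was -1.201 and still called.

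DNAJB9, an ER J-protein that works with HSPA5 and holds back IRE1, had 4.32 FPKM in DMSO and 4.88, 3.13, 1.83, 0.825 and 0.558 FPKM from 0.5 to 20 µM T5. T4 gave 4.87, 4.04, 2.29, 1.16 and 0.955 FPKM at those doses. Both compounds left it slightly above DMSO at 0.5 µM and below it at the other 4 doses. CPT gave 10.7, 14.2, 6.88, 5.27 and 5.16 FPKM, so that all 5 libraries were above DMSO, with a peak at 2 µM and values near DMSO at 10 and 20 µM. DNAJB9 fell, with a change of -2.03 ± 0.27 for T5 (limma adjusted p = 0.00213) and of -1.70 ± 0.29 for T4 (adjusted p = 0.00514). Adding 1 to FPKM understates the change at such low levels. With quantile normalization the changes were -1.31 and -0.98, both still called, and with median centring the T4 change was -1.05, also called. A straight line over CPT doses does not describe a peak: its change was -0.34 ± 0.62 (adjusted p = 0.681), 0.11 with median centring and 0.15 with quantile normalization, and without the DMSO library it was -1.53 with an adjusted p of 0.0441.

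DNAJC3, another ER J-protein and an inhibitor of PERK by its best-known role, did not pass the test with any compound. Its 8.18 FPKM in DMSO compared with 11.2, 8.46, 6.43, 6.55 and 5.73 FPKM from 0.5 to 20 µM T5 and with 10.8, 9.81, 7.24, 6.06 and 5.61 FPKM with T4. Both series started above DMSO and ended below it. CPT gave 5.34, 4.24, 4.61, 4.65 and 4.72 FPKM, below DMSO at every dose. The fitted changes were -0.66 ± 0.23 with T5 (limma adjusted p = 0.0532), -0.70 ± 0.26 with T4 (adjusted p = 0.0624) and -0.55 ± 0.27 with CPT (adjusted p = 0.139). Without DMSO the T5 and T4 changes passed, at -1.03 (adjusted p = 0.00759) and -1.13 (adjusted p = 0.00803), and with a pseudocount of 0.1 the T5 change did too, at -0.74 (adjusted p = 0.0496). With median centring the T5 change was 0.01.

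**Figure D1:**
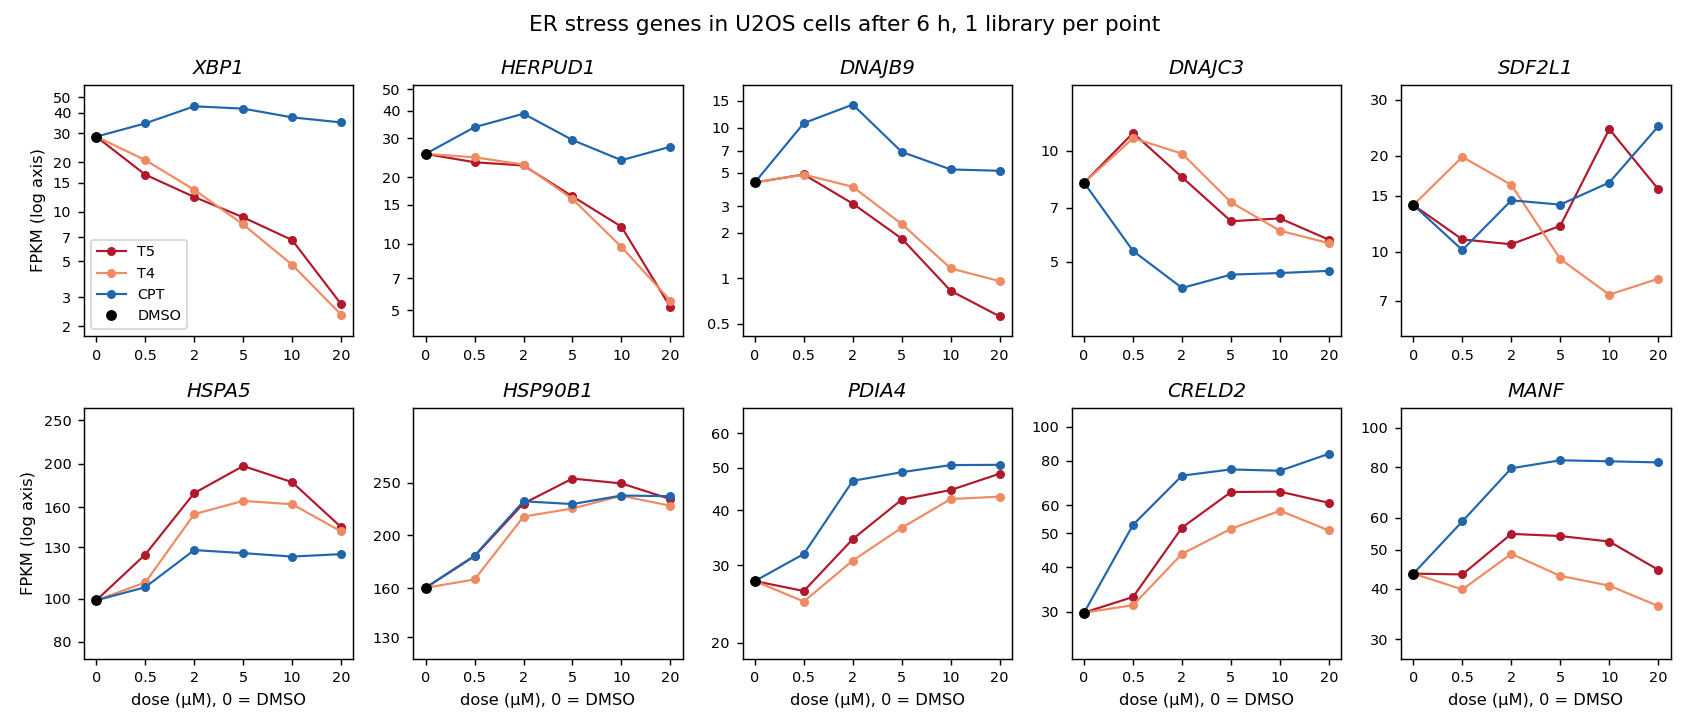
FPKM of the 10 genes on a log axis of its own in each panel, against dose in µM at equal spacing, with T5, T4 and CPT as lines through 1 library per dose and the DMSO library at 0. XBP1, HERPUD1 and DNAJB9 go down over T5 and T4 doses, with XBP1 at 2.73 FPKM for 20 µM T5 and 2.35 FPKM for 20 µM T4, against 28.7 FPKM in DMSO, whereas HSP90B1, CRELD2 and PDIA4 go up with all 3 compounds.

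The major chaperones did not follow XBP1. HSPA5 (BiP), the ER member of the HSP70 family and the partner of the J-proteins, had 99.1 FPKM in DMSO and 125, 172, 198, 182 and 144 FPKM from 0.5 to 20 µM T5. T4 gave 109, 154, 165, 162 and 141 FPKM, and CPT 106, 128, 126, 124 and 126 FPKM. All 15 treated libraries were above DMSO, with T5 and T4 highest at 5 µM. Total FPKM was also lowest in DMSO (238669) and highest at 5 µM T5 (285143), and these HSPA5 values are not adjusted for that. The fitted rise over T4 doses was 0.64 ± 0.21 (limma adjusted p = 0.0451). The T5 change of 0.67 ± 0.29 did not pass (adjusted p = 0.0989), nor did the CPT change of 0.34 ± 0.12 (adjusted p = 0.0635). For T5, leaving out the 20 µM library gave 1.16 (adjusted p = 0.0095), leaving out DMSO gave 0.30 (adjusted p = 0.501), and median centring gave 1.34 (adjusted p = 0.0189). Median centring also called the CPT change, at 0.79 (adjusted p = 0.0115), as did leaving out 2 µM CPT, at 0.36 (adjusted p = 0.0319). Quantile normalization turned the CPT sign, to -0.10 (limma adjusted p = 0.269), and left 0.26 for T5 (adjusted p = 0.349). The T4 call ended without DMSO (0.45, adjusted p = 0.221) and without the 0.5 µM (adjusted p = 0.136), 5 µM (adjusted p = 0.0663) or 10 µM library (adjusted p = 0.12). It also ended after quantile normalization (0.32, limma adjusted p = 0.16), without the filter (adjusted p = 0.108), with dose rank (adjusted p = 0.0636) and with linear dose (adjusted p = 0.402). Median centring gave 1.29 for T4 (adjusted p = 0.00537) and leaving out 20 µM gave 0.98 (adjusted p = 0.00888).

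HSP90B1 (GRP94), the ER member of the HSP90 family, had 160.2 FPKM in DMSO and 183, 229, 254, 249 and 233 FPKM from 0.5 to 20 µM T5. T4 gave 166, 216, 224, 236 and 227 FPKM, and CPT 183, 231, 228, 237 and 236 FPKM. All treated libraries were above DMSO and the 3 compounds ran close together from 2 µM on. It rose by 0.60 ± 0.16 with T5 (limma adjusted p = 0.0198), by 0.59 ± 0.13 with T4 (adjusted p = 0.0107) and by 0.55 ± 0.14 with CPT (adjusted p = 0.0216). These rises depended on scaling and on the DMSO library: median centring gave 1.28, 1.23 and 1.005 for T5, T4 and CPT, all called, quantile normalization left 0.06, 0.15 and 0.05, none called, and without DMSO they were 0.43, 0.53 and 0.39, with adjusted p of 0.118, 0.0553 and 0.0879. The T5 rise also lost its call without the 0.5 µM (adjusted p = 0.0644) or 10 µM library (0.0654), and the CPT rise without the 0.5 µM (0.0643), 5 µM (0.0531) or 10 µM library (0.0746). A pseudogene copy, HSP90B2P, was listed at 0.967 to 2.60 FPKM in these libraries, and reads that fit both cannot be assigned from FPKM. Values of pseudogene copies of XBP1 and HSPA5 (XBP1P1 and HSPA5P1) were not used here.

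PDIA4 (ERp72), a protein disulfide isomerase, had 27.6 FPKM in DMSO and 26.2, 34.4, 42.3, 44.5 and 48.5 FPKM from 0.5 to 20 µM T5. T4 gave 24.8, 30.7, 36.5, 42.4 and 43.0 FPKM, and CPT 31.8, 46.7, 48.9, 50.7 and 50.8 FPKM. T5 and T4 were just below DMSO at 0.5 µM and climbed at each further dose, while CPT had levelled off by 5 µM. PDIA4 rose by 0.92 ± 0.13 with T5 (limma adjusted p = 0.0023), by 0.79 ± 0.14 with T4 (adjusted p = 0.00567) and by 0.91 ± 0.18 with CPT (adjusted p = 0.0138). These calls held after both rescalings, with median centring giving 1.59 for T5, 1.44 for T4 and 1.36 for CPT; without the 10 µM library the CPT rise was 0.91 with an adjusted p of 0.057.

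SDF2L1, a luminal protein that works with ER J-proteins and HSPA5, was the most irregular member. It had 14.01 FPKM in DMSO and 10.9, 10.5, 12.1, 24.3 and 15.7 FPKM from 0.5 to 20 µM T5. T4 gave 19.9, 16.2, 9.47, 7.32 and 8.22 FPKM, and CPT 10.1, 14.5, 14.1, 16.5 and 24.8 FPKM. The T4 libraries were above DMSO at the lowest doses and below it from 5 µM, and the CPT library at 20 µM stood above the rest of its series. SDF2L1 fell with T4, with a fitted change of -1.16 ± 0.33 (limma adjusted p = 0.0279). That call ended with either rescaling (adjusted p = 0.188 with median centring and 0.107 with quantile normalization) and on leaving out the 0.5 µM (0.088), 5 µM (0.0506), 10 µM (0.0879) or 20 µM (0.0639) library. The changes with T5 (0.58 ± 0.39, adjusted p = 0.249) and CPT (0.81 ± 0.29, adjusted p = 0.061) did not pass the test. Median centring called both, at 1.25 for T5 (adjusted p = 0.0214) and 1.26 for CPT (adjusted p = 0.00941), quantile normalization called CPT (1.08, adjusted p = 0.0307), and so did leaving out DMSO (1.28, adjusted p = 0.0228).

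CRELD2 and MANF, small proteins that are kept in the ER or secreted under stress, parted from each other. CRELD2 had 29.8 FPKM in DMSO and 33.0, 51.8, 65.3, 65.5 and 60.9 FPKM from 0.5 to 20 µM T5. T4 gave 31.3, 43.7, 51.4, 57.8 and 50.8 FPKM, and CPT 52.8, 72.7, 75.7, 74.99 and 83.8 FPKM. Every treated library was above DMSO, and CPT was above T5 and T4 at each dose. CRELD2 rose by 1.19 ± 0.22 with T5 (limma adjusted p = 0.00612), by 0.95 ± 0.18 with T4 (adjusted p = 0.00634) and by 1.26 ± 0.29 with CPT (adjusted p = 0.018). The calls held under both rescalings, with median centring giving 1.86 for T5, 1.59 for T4 and 1.71 for CPT. Without DMSO the CPT rise was 0.70 and still called, and without the 10 µM library it was 1.33 (adjusted p = 0.0584).

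MANF, which binds HSPA5 and protects cells under ER stress, had 43.6 FPKM in DMSO and 43.4, 54.7, 54.0, 52.3 and 44.5 FPKM from 0.5 to 20 µM T5. T4 gave 39.8, 48.8, 43.0, 40.7 and 36.2 FPKM, and CPT 58.7, 79.4, 83.1, 82.7 and 82.1 FPKM. The CPT libraries stood above all others at every dose, while T5 libraries had 43.4 to 54.7 FPKM and T4 libraries 36.2 to 48.8 FPKM, with a peak at 2 µM in both. MANF rose with CPT by 0.87 ± 0.21 (limma adjusted p = 0.0208), and the change was 0.15 ± 0.17 with T5 (adjusted p = 0.484) and -0.18 ± 0.15 with T4 (adjusted p = 0.367). The CPT call ended without DMSO (0.53, adjusted p = 0.0793), the 0.5 µM (adjusted p = 0.0574) or the 10 µM library (adjusted p = 0.0662) and with quantile normalization (0.56, adjusted p = 0.0562). Median centring raised the CPT change to 1.32, turned the sign with T4 (0.47, adjusted p = 0.0843) and called a rise with T5 (0.82, adjusted p = 0.0257), whereas quantile normalization turned the sign with T5 (-0.02).

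Counted over the 10 genes, 3 rose and 3 fell with T5 dose, where 18.2% of all tested genes rose and 34.5% fell. With T4, 4 rose and 4 fell, against 14.5% and 32.4% of tested genes. With CPT, 4 rose and 0 fell, against 17.9% and 25.8% of tested genes, and in limma no member fell with CPT at an unadjusted p under 0.05 either. Without the 10 µM CPT library 0 members rose, but then only 1 of all 10600 tested genes was called, against 4638 with it. With dose on a linear scale none of these rises passed the test, while XBP1, HERPUD1 and DNAJB9 still fell with T5 and T4. The median change over the 10 genes was 0.36 with T5, -0.44 with T4 and 0.45 with CPT, beside -0.29, -0.27 and -0.14 over all tested genes. A median says little of a group that splits: with T4 its values ran from -3.09 for XBP1 to 0.95 for CRELD2. Scaling bears on these changes: median centring raised the median over all tested genes by 0.67 for T5, 0.65 for T4 and 0.45 for CPT, and quantile normalization by 0.36, 0.35 and 0.21. Quantile normalization did not move genes alike, since with T5 it lowered HSP90B1 (to 0.06) and raised SDF2L1 (to 0.92). The 3 trends share the DMSO library, so they are not independent of each other. No dose had a replicate and nothing says that dishes were separate cultures, so these p-values reflect only how far lone libraries lie from a fitted line, curvature included.

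**Figure D2:**
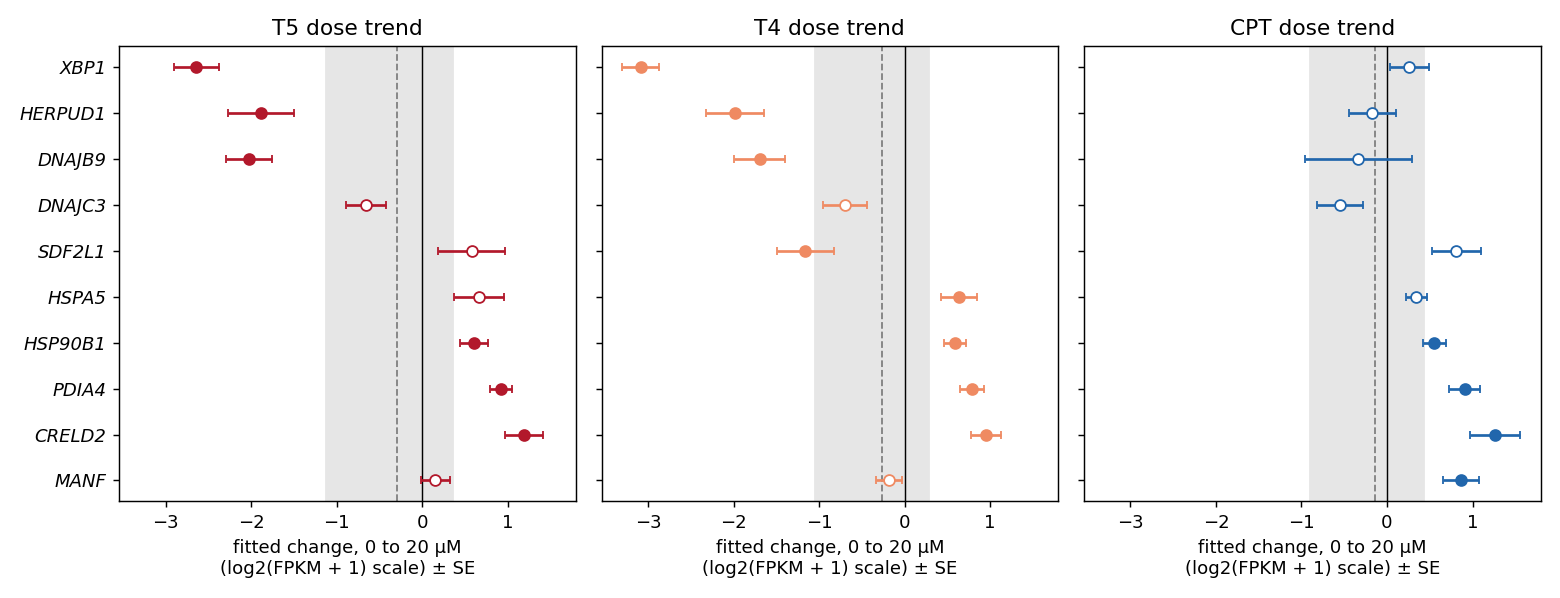
Fitted log2(FPKM + 1) change between 0 and 20 µM for each gene with T5, T4 and CPT, with bars for the standard error. Filled points passed the test, the grey band spans the quartiles of all tested genes and the dashed line is their median. XBP1, HERPUD1 and DNAJB9 lie far to the negative side for T5 and T4, whereas CRELD2, PDIA4 and HSP90B1 lie on the positive side for all 3 compounds.

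Within single libraries the split showed as ratios that need no scaling between libraries. HSPA5 had 7.46, 13.99, 21.4, 27.1 and 52.9 times the FPKM of XBP1 from 0.5 to 20 µM T5, and 5.26, 11.3, 19.8, 34.2 and 59.95 times with T4, against 3.46 times in DMSO. In CPT libraries the ratio was 2.92 to 3.59 and so stayed around that of DMSO. The ratio of HSPA5 to DNAJB9 reached 259 at 20 µM T5 and 148 at 20 µM T4, against 22.9 in DMSO, and in CPT libraries it was 9.03 to 24.3.

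At matched doses T5 and T4 were set against CPT without the DMSO library, as the mean log2(FPKM + 1) difference over 5 doses with dose as a block. With T5, 6 genes were lower than with CPT and 2 higher, where 37.6% of tested genes were lower and 25% higher. With T4, 6 were lower and 2 higher too, against 36.9% and 28.3% of tested genes. XBP1 differed most among the members, with -2.09 ± 0.29 for T5 minus CPT (limma adjusted p = 0.00124) and -2.15 ± 0.36 for T4 minus CPT (adjusted p = 0.00254). DNAJB9 came next, with -1.62 ± 0.15 for T5 (adjusted p = 0.000347) and -1.41 ± 0.12 for T4 (adjusted p = 0.000415), and HERPUD1 had -1.04 ± 0.24 and -1.07 ± 0.23. XBP1, DNAJB9 and HERPUD1 were below CPT at 5 of 5 doses with both compounds.

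MANF, CRELD2 and PDIA4 were lower than with CPT as well. MANF differed by -0.62 ± 0.07 for T5 minus CPT (limma adjusted p = 0.000514) and by -0.87 ± 0.09 for T4 minus CPT (adjusted p = 0.000622), CRELD2 by -0.40 ± 0.08 and -0.62 ± 0.07, and PDIA4 by -0.23 ± 0.06 and -0.37 ± 0.07. CRELD2 and PDIA4 thus rose with every compound but stood lower with T5 and T4 than with CPT at 5 of 5 doses; for T5 median centring left -0.21 for CRELD2 (adjusted p = 0.0831) and -0.04 for PDIA4 (adjusted p = 0.631). HSPA5 was higher, by 0.41 ± 0.07 for T5 (adjusted p = 0.00322) and 0.25 ± 0.06 for T4 (adjusted p = 0.0106), and DNAJC3 by 0.57 ± 0.12 and 0.60 ± 0.14, both at 5 of 5 doses. HSP90B1 did not differ past the test, with a 95% interval of -0.05 to 0.13 for T5 and -0.14 to 0.01 for T4, but both rescalings called it higher with T5 than with CPT (0.23 with median centring, adjusted p = 0.0074, and 0.08 with quantile normalization, adjusted p = 0.0335). Without dose as a block the calls ended for HSPA5 with T4 (adjusted p = 0.113), CRELD2 with T5 (0.135) and PDIA4 with T5 (0.359) and T4 (0.122). SDF2L1 did not pass either, with wide intervals of -0.52 to 0.27 for T5 and -1.21 to 0.40 for T4.

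**Figure D3:**
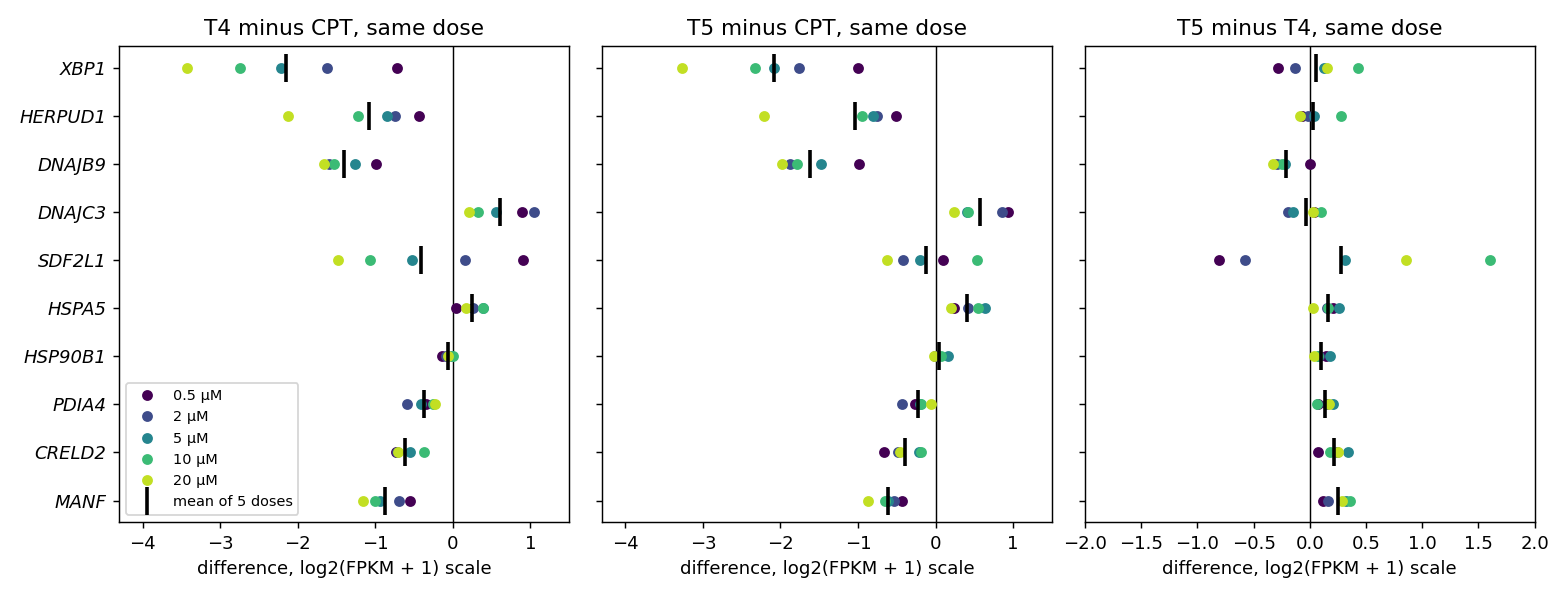
Differences in log2(FPKM + 1) at the same dose for T5 minus CPT, T4 minus CPT and T5 minus T4, with 1 point per dose and a bar at the mean of 5 doses. XBP1, DNAJB9, HERPUD1 and MANF lie below 0 at all doses in both comparisons with CPT, HSPA5 and DNAJC3 lie above 0, and for T5 minus T4 all members but SDF2L1, which runs from -0.81 at 0.5 µM to 1.60 at 10 µM, lie between -0.33 and 0.43.

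Slopes over dose were compared directly between compounds over the 5 doses of each, again without DMSO. XBP1 had a lower slope with T5 than with CPT, a difference of -2.53 ± 0.46 in the fitted change up to 20 µM (limma adjusted p = 0.0138), and no other member passed where 8.73% of tested genes did. Between T4 and CPT, slopes of XBP1 (-3.25 ± 0.35, adjusted p = 0.00306), SDF2L1 (-2.99 ± 0.42, adjusted p = 0.00582) and HERPUD1 (-1.87 ± 0.48, adjusted p = 0.0489) differed, where 7.77% of tested genes did. The T5 value for HERPUD1 was -1.73 ± 0.58, with an adjusted p of 0.104. DNAJB9, which peaked at 2 µM CPT and then came down, showed no slope difference past the test (-0.96 ± 0.51 for T5 and -0.64 ± 0.55 for T4). With dose on a linear scale 2 members differed in slope between T5 and CPT and 0 between T4 and CPT. Median centring and quantile normalization each gave 2 between T4 and CPT, against 3.

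T5 and T4 were then compared with each other at the same doses. MANF (0.25 ± 0.04, limma adjusted p = 0.00806), CRELD2 (0.22 ± 0.04, adjusted p = 0.0109), HSPA5 (0.16 ± 0.04, adjusted p = 0.0194), PDIA4 (0.14 ± 0.03, adjusted p = 0.0229) and HSP90B1 (0.10 ± 0.03, adjusted p = 0.048) were higher with T5, each at 5 of 5 doses, where 6.05% of tested genes were higher. DNAJB9 was lower with T5, by -0.22 ± 0.06 (adjusted p = 0.0285) at 4 of 5 doses, where 26.5% of tested genes were lower. All 5 higher genes lost the call when dose was not kept as a block (adjusted p = 0.971), HSPA5 and HSP90B1 also after quantile normalization, and DNAJB9 under either or after median centring. With median centring the differences were 0.26 for HSPA5, 0.24 for PDIA4 and 0.21 for HSP90B1, and a pseudocount of 0.1 made that of DNAJB9 -0.36. On leaving out 1 dose, MANF and CRELD2 kept the call in each case, HSP90B1 in none, and the others in some. XBP1 differed by 0.06 with a 95% interval of -0.17 to 0.29, HERPUD1 by 0.03 (-0.11 to 0.17) and DNAJC3 by -0.04 (-0.17 to 0.09). For SDF2L1 the interval of -0.52 to 1.08 allows a difference either way. Slopes of T5 and T4 differed past limma's adjusted threshold for 0% of tested genes, although 419 genes were under 0.05 before adjustment. SDF2L1 was the only member among these, with a slope difference of 2.74 ± 0.62 (limma adjusted p = 0.893).

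The rest of the pathway is given by lists, without tests of their own, to be read against the shares of all tested genes: 18.2% rose and 34.5% fell with T5, 14.5% and 32.4% with T4, and 17.9% and 25.8% with CPT. Rescaled counts have other backgrounds. With median centring 4388 of all 10600 tested genes rose and 1992 fell with T5, 4293 and 1847 with T4, and 3572 and 1643 with CPT. Quantile normalization made these 3013 and 2344, 2806 and 2101, and 2341 and 1910. A list gene is named for a compound where its change was among the largest, so compounds not named may have changed it too. Of 25 other ER chaperones and folding enzymes tested, 18 rose and 1 fell with T5, 17 rose and 1 fell with T4, and 13 rose and 1 fell with CPT, with median changes of 0.52, 0.50 and 0.55. P4HB, the founding protein disulfide isomerase, rose by 0.79 ± 0.13 with T5 (limma adjusted p = 0.00374, 305 FPKM at 20 µM and 187 FPKM in DMSO). It also rose with T4, by 0.64 ± 0.10 (adjusted p = 0.00362, 273 FPKM at 20 µM). PPIB, a proline isomerase of the ER, rose by 0.87 ± 0.16 with CPT (adjusted p = 0.0127, 439 FPKM at 20 µM and 237 FPKM in DMSO). TXNDC11, a thioredoxin-like ER membrane protein, was the one that fell, with -1.64, -1.75 and -1.68 for T5, T4 and CPT. Quantile normalization left 15, 16 and 6 rising, and median centring made it 22, 22 and 21.

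Sensors and transcription factors of the UPR, like all tested genes, had more falls than rises. Of 14 tested, 7 fell and 1 rose with T5, 7 fell and 1 rose with T4, and 6 fell and 1 rose with CPT, with median changes of -0.93, -0.83 and -0.58, beside -0.29, -0.27 and -0.14 over all tested genes. EIF2AK3, which encodes the sensor PERK, fell, with a change of -1.83 ± 0.20 for T5 (limma adjusted p = 0.00137) and -1.502 ± 0.24 for CPT (adjusted p = 0.0106). TRAF2, an adaptor that binds IRE1, fell, with -2.74 ± 0.41 for T5 (adjusted p = 0.0029; 0.941 FPKM at 20 µM and 11.1 FPKM in DMSO) and -2.82 ± 0.28 for T4 (adjusted p = 0.00124). DDIT3 (CHOP), a transcription factor of prolonged ER stress, fell with T4 (-1.72 ± 0.20, adjusted p = 0.00169; 0.355 FPKM at 20 µM and 3.80 FPKM in DMSO), and GTF2I, a factor that binds ERSE, fell with CPT (-1.48 ± 0.44, adjusted p = 0.0362). Under either rescaling 4 of the 14 fell with each compound. ERN1, which encodes the sensor IRE1, was too low to be tested, with 0.207 to 0.684 FPKM in the 15 treated libraries and 0.888 FPKM in DMSO. ATF6B, a relative of ATF6, is listed at 0 throughout and was not tested.

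Among 20 genes of ER-associated degradation, 3 rose and 5 fell with T5, 2 rose and 5 fell with T4, and 2 rose and 6 fell with CPT, near or below the shares of all tested genes in both directions but for the falls with CPT (25.8% of all). HERPUD2, the paralogue of HERPUD1, fell, with -1.84 ± 0.30 for T5, -2.09 ± 0.24 for T4 and -2.17 ± 0.39 for CPT, whereas HERPUD1 itself had a fitted change of -0.17 with CPT. SYVN1 (HRD1), the ubiquitin ligase that HERPUD1 binds, fell, with -1.82 ± 0.18 for T5 (limma adjusted p = 0.00117) and -1.70 ± 0.17 for T4 (adjusted p = 0.00124), and FAF2, an adaptor of the p97 ATPase, fell by 1.73 ± 0.31 with CPT (adjusted p = 0.0119). Median centring turned the balance of this list, as it did over all tested genes. It gave 8 rising and 4 falling with T5, 9 and 3 with T4, and 5 and 3 with CPT. Quantile normalization left more falling than rising in this list, with 3 rising and 5 falling with T5, 4 and 5 with T4, and 3 and 5 with CPT. In the PERK and ATF4 arm, 1 rose and 4 fell with T5, 1 rose and 6 fell with T4, and 2 rose and 2 fell with CPT, of 18 tested. Median centring made these 7 and 3, 7 and 3, and 9 and 1, and quantile normalization 2 and 4, 1 and 4, and 2 and 4. TRIB3, a pseudokinase induced by ATF4 and CHOP, fell, with -1.91 ± 0.18 for T5 (adjusted p = 0.0011) and -2.48 ± 0.28 for T4 (adjusted p = 0.00155), and CHAC1, a glutathione-degrading enzyme, fell by 1.74 ± 0.19 with T4 (adjusted p = 0.00147). CEBPB, a transcription factor, rose with CPT by 1.25 ± 0.40 (adjusted p = 0.045), and VLDLR, a lipoprotein receptor, fell, with -1.42 ± 0.19 for T5 (adjusted p = 0.0023) and -1.301 ± 0.25 for CPT (adjusted p = 0.0133).

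Entry into the ER and exit from it were each given a list. Of 25 translocation genes, 12 rose and 4 fell with T5, 6 rose and 4 fell with T4, and 5 rose and 3 fell with CPT. Median centring made these 21 and 2, 20 and 2, and 14 and 2, and quantile normalization 8 and 3, 6 and 3, and 3 and 2. SSR4, part of the translocon-associated complex, rose by 0.89 ± 0.12 with T5 and by 1.02 ± 0.18 with CPT, while SRP19 of the signal recognition particle fell, with -1.73 ± 0.23 and -2.19 ± 0.36. With T4, SRP14 of that particle rose by 0.77 ± 0.12 and SEC61G of the channel by 0.50 ± 0.11. Of 20 genes of ER exit and retrieval, 7 rose and 5 fell with T5, 6 rose and 5 fell with T4, and 7 rose and 5 fell with CPT. SEC24B, which picks cargo for coat vesicles, fell, with -2.53 ± 0.32 for T5 and -2.53 ± 0.41 for CPT, and so did its relative SEC24D, with -1.63 ± 0.32 and -1.98 ± 0.50; SEC23A of the same coat rose by 0.67 ± 0.09 and the cargo receptor LMAN1 by 0.56 ± 0.11 with T4. Each of these passed limma's adjusted threshold. Quantile normalization left 3 genes of exit and retrieval rising and 6 falling with T5, 4 and 3 with T4, and 2 and 4 with CPT, and median centring gave 13 and 4, 13 and 2, and 11 and 3.

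Of 19 cytosolic heat shock genes tested, listed beside those of the ER, 4 rose and 7 fell with T5, 3 rose and 6 fell with T4, and 5 rose and 5 fell with CPT, close to the shares of all tested genes (18.2% and 34.5%, 14.5% and 32.4%, and 17.9% and 25.8%). HSPB1, a small heat shock protein, rose by 1.31 ± 0.30 and CHORDC1, an HSP90 co-chaperone, fell by 0.77 ± 0.25 with T5, both past limma's adjusted threshold. HSP90AB1 and HSP90AA1, the cytosolic relatives of HSP90B1, rose by 0.56 ± 0.14 and 0.45 ± 0.09 with T4, and with CPT BAG3, a co-chaperone, rose by 1.204 ± 0.24 while HSPA8, the constitutive cytosolic HSP70, fell by 0.73 ± 0.15. Quantile normalization left 1 rising for T5, 0 for T4 and 2 for CPT, and median centring made these 8, 7 and 9. The HSP70 genes HSPA1A and HSPA1B, and HSPA4L, are listed at 0 throughout and were not tested, so these counts do not cover them.

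**Figure D4:**
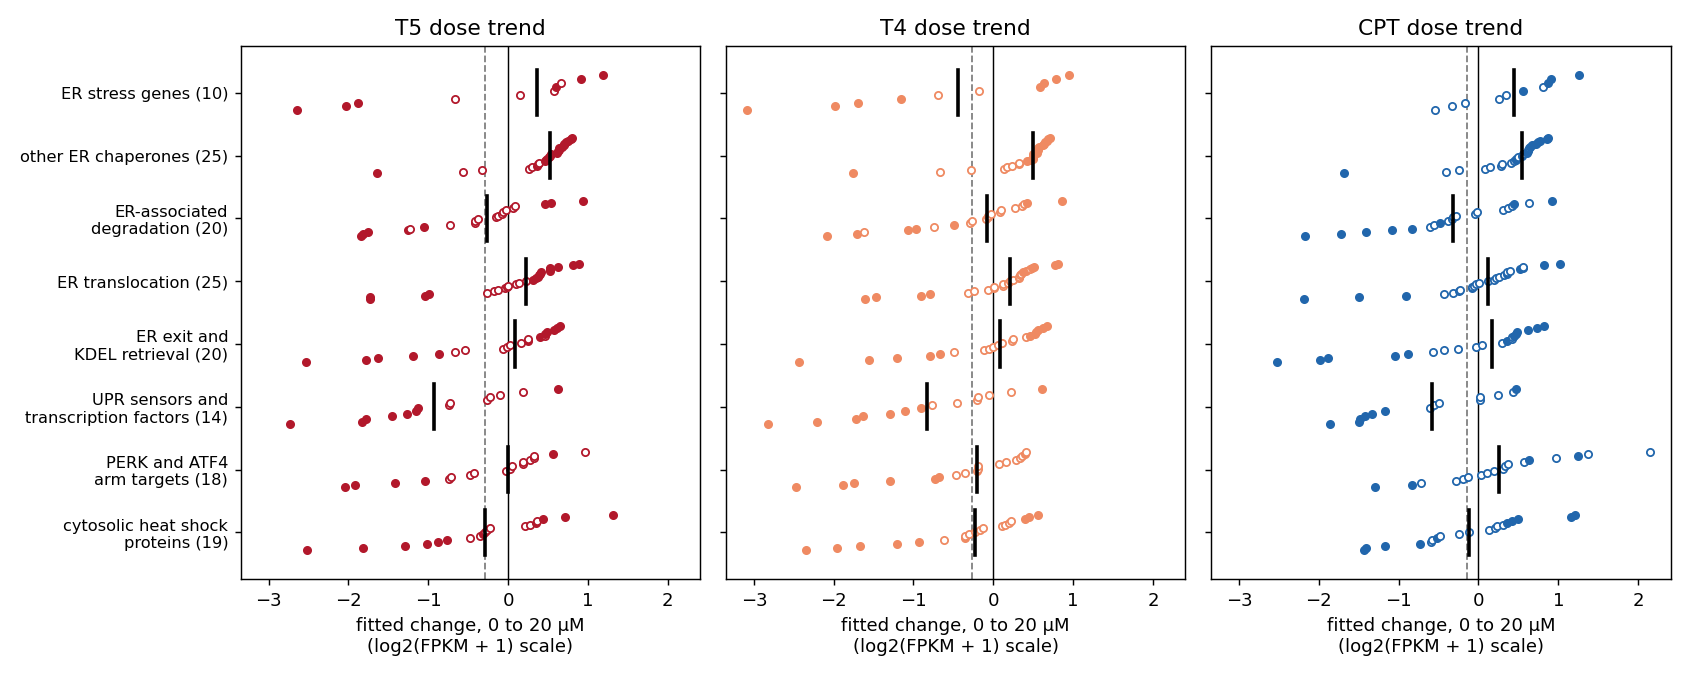
Fitted log2(FPKM + 1) change between 0 and 20 µM for the tested genes of each pathway list and for the 10 ER stress genes, with T5, T4 and CPT in separate panels. Points are genes, black bars are list medians and the dashed line is the median of all tested genes. The other ER chaperones lie mostly above 0, with medians of 0.52, 0.50 and 0.55, and UPR sensors and transcription factors mostly below, with medians of -0.93, -0.83 and -0.58.

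Members with ERSE moved in both directions: HSP90B1 and CRELD2 rose with T5 and T4, and XBP1 fell. Of the members with ERSE-II, HERPUD1 fell with T5 and T4, and SDF2L1 fell with T4 (-1.16, limma adjusted p = 0.0279) and did not pass with T5. Over all promoters 44 genes held either motif and 28 of them were tested, of which 12 rose and 9 fell with T5, 12 rose and 10 fell with T4, and 12 rose and 4 fell with CPT, where 18.2% and 34.5%, 14.5% and 32.4%, and 17.9% and 25.8% of all tested genes did. Leaving out members, 22 were tested, with 10 rising and 7 falling, 9 and 7, and 10 and 4. The 4 of these that also stood in the chaperone list rose with every compound: with T5 the changes were 0.62 ± 0.14 for CALR, 0.52 ± 0.10 for CANX, 0.68 ± 0.12 for PDIA6 and 0.64 ± 0.15 for HYOU1, all past limma's adjusted threshold. Of the 25 tested genes of that list 18 rose with T5, and whether the motif bears on these rises was not tested. The 7 motif-bearing non-members that fell with T5 were ALG12 (ERSE, -1.50 ± 0.38), EIF2A, RAD9A, SHCBP1, SYNPO, ZNF143 and ZNF17. Of these, ALG12, EIF2A, SHCBP1 and ZNF143 fell with T4 and CPT as well. A motif match describes these letters only.

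Across all 16 libraries, as a description with libraries sharing compound and dose, XBP1 ran with HERPUD1 (Pearson r = 0.947 on log2(FPKM + 1)) and DNAJB9 (r = 0.924), and CRELD2 ran with PDIA4 (r = 0.939). Falls were common over all tested genes, at 34.5% with T5 and 32.4% with T4. How many genes run as closely with XBP1 was not counted. HSPA5 was nearest to HSP90B1 among the members (r = 0.768), XBP1 and HSPA5 had r = -0.614, and DNAJC3 and PDIA4 had r = -0.871. Over all tested genes, ZNF230 (r = 0.992), DCLRE1B (0.992), FIZ1 (0.991), CBX2 (0.991) and GEMIN4 (0.991) were nearest to XBP1. Those nearest to HSPA5 were C17orf58 (r = 0.961), SRSF7, RGS16, NOP56 and KRT14 (0.957).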

How the data were processed

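The authors deposited FPKM in 1 matrix, a column for each library per the file headers. Per the submitters' processing notes GSNAP, Cufflinks, hg19 and GRCh37 were used, with no roles stated; the versions, annotation and strandedness are not given. After leaving out 2 inner header lines, 1 incomplete line and 220 identical repeats, 25270 genes were left. Depth is unknown and was read only relative to DMSO, from steps between values below 0.2 FPKM, and for that reason neither count tests nor counting intervals were made.

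log2(FPKM + 1) of the 10600 genes averaging 1 FPKM or more was fitted with limma 3.58.1 in R 4.3.3 (moderated variance with trend, 2-sided, Benjamini-Hochberg at 0.05 over all 10600 genes). The fits were also run on simulated data with independent noise and changes of the fitted shape. That checks the code only, since real curvature and shifts shared by genes of a library were not simulated. A pseudocount of 1 understates changes of low genes. Dose trends used DMSO and 5 libraries on log2(1 + dose / 0.5 µM), scaled to 20 µM; matched-dose fits had dose as a block, and slope fits a compound by dose term. Alternatives were a pseudocount of 0.1, no filter, a minimum mean of 5 FPKM, median centring, quantile normalization, linear dose, dose rank, no dose block and leaving out each library. No library pair was identical. Tables were made with pandas 2.3.3 and numpy 2.4.6 in Python 3.11.15, plots with matplotlib 3.10.9.

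The members and lists were chosen with earlier results of these data known. Named were all members; from each list the 2 called genes with the largest change per trend and the same sign at all 5 doses; and 5 nearest genes by correlation. Motif-bearing chaperones, motif-bearing non-members that fell with T5, HERPUD1 beside HERPUD2 and the markers were added.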

Additional observations from a re-analysis of the deposited data

Results flagged for a closer look

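Dose slopes of XBP1 differed between T5 and CPT, by -2.53 ± 0.46 on the log2(FPKM + 1) scale up to 20 µM (limma adjusted p = 0.0138), and between T4 and CPT, by -3.25 ± 0.35 (adjusted p = 0.00306). Slopes of SDF2L1 and HERPUD1 differed between T4 and CPT, by -2.99 ± 0.42 (adjusted p = 0.00582) and -1.87 ± 0.48 (adjusted p = 0.0489). What flagged each was the test of the difference itself between compounds, over 10 treated libraries. Without the filter, with a mean of at least 5 FPKM or under either rescaling, 2 members differed in slope between T4 and CPT, against 3. For HERPUD1 the T5 minus CPT value was close to that of T4, at -1.73 ± 0.58, but did not pass (limma adjusted p = 0.104).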

How the results depend on the processing

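Of 60 values of single members (3 trends and 3 matched-dose differences), 40 were called and 0 of these changed sign under any alternative; 17 kept the call under all of them, and of 864 recomputed values 95 lost and 15 gained a call. With dose on a linear scale 0 members rose with T5, T4 or CPT, 0 slopes differed between T4 and CPT and 2 between T5 and CPT. Median centring gave 6 rising with T5 and 0 lower with T5 than T4. Quantile normalization gave 2 rising with T4, 2 slopes that differed between T5 and CPT, 3 higher with T5 than T4 and 0 lower. Without the filter 3 were higher with T5 than T4 and 0 lower. With a mean of at least 5 FPKM 0 were lower. That filter left out DNAJB9, the only member called lower, so this 0 was fixed in advance and is not a lost call. Without the dose block 1 was higher with T4 than CPT, and 0 were higher or lower with T5 than T4. Leaving out 1 library, the number rising was 0 to 5 with CPT (0 without 10 µM, where 1 of all 10600 tested genes was called against 4638, and 2 without 0.5 µM, against 4), 2 to 4 with T4 (2 without DMSO) and 2 to 4 with T5; the number falling was 0 to 1 with CPT (1 without DMSO), 3 to 5 with T4 and 3 to 4 with T5. In the same way 2 to 4 slopes differed between T4 and CPT and 1 to 2 between T5 and CPT (2 without 0.5 µM CPT, 2 µM CPT or 0.5 µM T5), and 2 to 3 members were higher and 0 to 1 lower with T5 than T4. Signs turned only for values that were not called. With median centring these were HERPUD1 with CPT (0.28), DNAJB9 with CPT (0.11), MANF with T4 (0.47), DNAJC3 with T5 (0.010), HSP90B1 for T4 minus CPT (0.021), SDF2L1 for T5 minus CPT (0.063) and DNAJC3 for T5 minus T4 (0.066). With quantile normalization they were HSPA5 with CPT (-0.10), DNAJB9 with CPT (0.15), MANF with T5 (-0.023), HSP90B1 for T4 minus CPT (0.069) and DNAJC3 for T5 minus T4 (0.058), and with linear dose MANF with T5 (-0.021). Leaving out 1 library gave -0.056 to 0.52 for XBP1 with CPT and -0.29 to 0.00057 for SDF2L1 for T5 minus CPT. For T5 minus T4 the same gave -0.033 to 0.14 for XBP1, -0.033 to 0.058 for HERPUD1, -0.052 to 0.55 for SDF2L1 and -0.068 to 0.0039 for DNAJC3, where leaving out 1 library drops its dose from both compounds. The cause was not tested.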
